A study of Homo sapiens with 12 samples.

Results

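The genes described here are 10 negative regulators of MAP kinase signalling, namely the phosphatase genes DUSP1, DUSP4, DUSP5, DUSP6, DUSP8, DUSP10 and DUSP14 and the Sprouty-type genes SPRY2, SPRY4 and SPRED1. They were chosen by name, out of 19775 genes measured, and where several probe sets name a gene, the brightest on average across the 12 arrays was used. All 10 were on the array, with 20 probe sets that name one of them alone, and 9 were expressed highly enough to be tested. RNA came from HK-2 cells, an immortalised line of human renal proximal tubular epithelium, treated with Aa, at a dose labelled high, or with the control vehicle. The groups were Aa for 24 h, vehicle for 24 h, Aa for 48 h and vehicle for 48 h, with 3 biological replicates each. What Aa stands for and the amount used are not stated in the labels. All cells grew to near confluence in medium with epidermal growth factor, insulin and hydrocortisone, so the controls too were under a growth factor stimulus.

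Growth factor receptors act through RAS, RAF and MEK on the kinase ERK, while stress acts through parallel cascades on the kinases JNK and p38. MAP kinase phosphatases switch these kinases off by removing phosphate from both a threonine and a tyrosine of the activation loop, and Sprouty and Spred proteins block the signal between the receptor and RAF. Many of these genes are themselves induced by the kinases they restrain, which makes them a negative feedback loop and, in the case of DUSP6 and SPRY4, common readouts of ERK activity.

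The arrays within each group were closely alike. The correlation between arrays of 1 group was 0.994 to 0.997. RNA quality was read as the excess of 3' over 5' signal for ACTB and GAPDH (log2). It averaged 0.394 in Aa cells and 0.306 in vehicle cells at 24 h. After 48 h its mean was 0.542 in Aa cells and 0.319 in vehicle cells. Of 17 proximal tubule and epithelial markers on the array 8 were tested, of which 4 fell at 24 h and 6 fell and 1 rose at 48 h. The brush border genes LRP2, CUBN, AQP1, ANPEP and SLC34A1 stayed under log2 4 on all 12 arrays. Other genes of that list were expressed, with SLC3A1 at 5.61 to 10.24, SLC4A4 at 8.58 to 12.81 and CDH6 at 9.06 to 13.19. PAX8 lay at 10.01 to 11.35 and CDH1 at 5.17 to 7.80. The epithelial genes KRT8, KRT18 and EPCAM lay at 11.32 to 13.60. Of 7 fibroblast markers 3 were also expressed and tested, with COL1A1 at 7.27 to 8.56, DCN at 11.56 to 12.45 and LUM at 8.91 to 9.98. Of these 3, 1 fell at 24 h and 0 passed at 48 h by limma. Of 4 leukocyte markers on the array 0 reached the filter. The part of RNA quality and of these markers in the results below was not tested. Since RNA was measured in bulk, fewer cells expressing a gene and less RNA per cell cannot be told apart.

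In Aa-treated cells these genes moved in both directions. DUSP1, DUSP8 and DUSP14 were higher at both times, DUSP10 was higher at 48 h by more than any other of the 9 tested genes, and SPRED1 was lower at both times. SPRY2 and SPRY4 were lower at 24 h and did not pass at 48 h, while DUSP5 passed as higher and DUSP6 as lower at 48 h. At 24 h 6 of the 9 tested genes passed the test, 3 higher and 3 lower, where 49.1% of all 11184 genes passed, 26.3% higher and 22.8% lower. At 48 h 7 of 9 passed, 5 higher and 2 lower, where 64.5% of all genes passed, 30.6% higher and 33.9% lower. With so many genes of the array passing, a count of this size is not particular to these genes. The median change of the 9 genes was -0.39 at 24 h and 0.78 at 48 h (log2), and that of all genes was 0.02 and -0.03. The hybridisation controls averaged 10.93 (log2) in Aa and 10.65 in vehicle arrays at 24 h, and 11.40 and 10.96 at 48 h. The deposited values, already normalised by the authors, were also scaled to these controls. That scaling shifted the median of all genes by -0.28 at 24 h and by -0.44 at 48 h. It left 30.2% of all calls at 24 h as higher, against 53.6% without it, and 23.5% against 47.5% at 48 h; of the 9 genes 1 was then higher and 4 lower at 24 h, and 4 higher and 2 lower at 48 h.

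**Figure D1:**
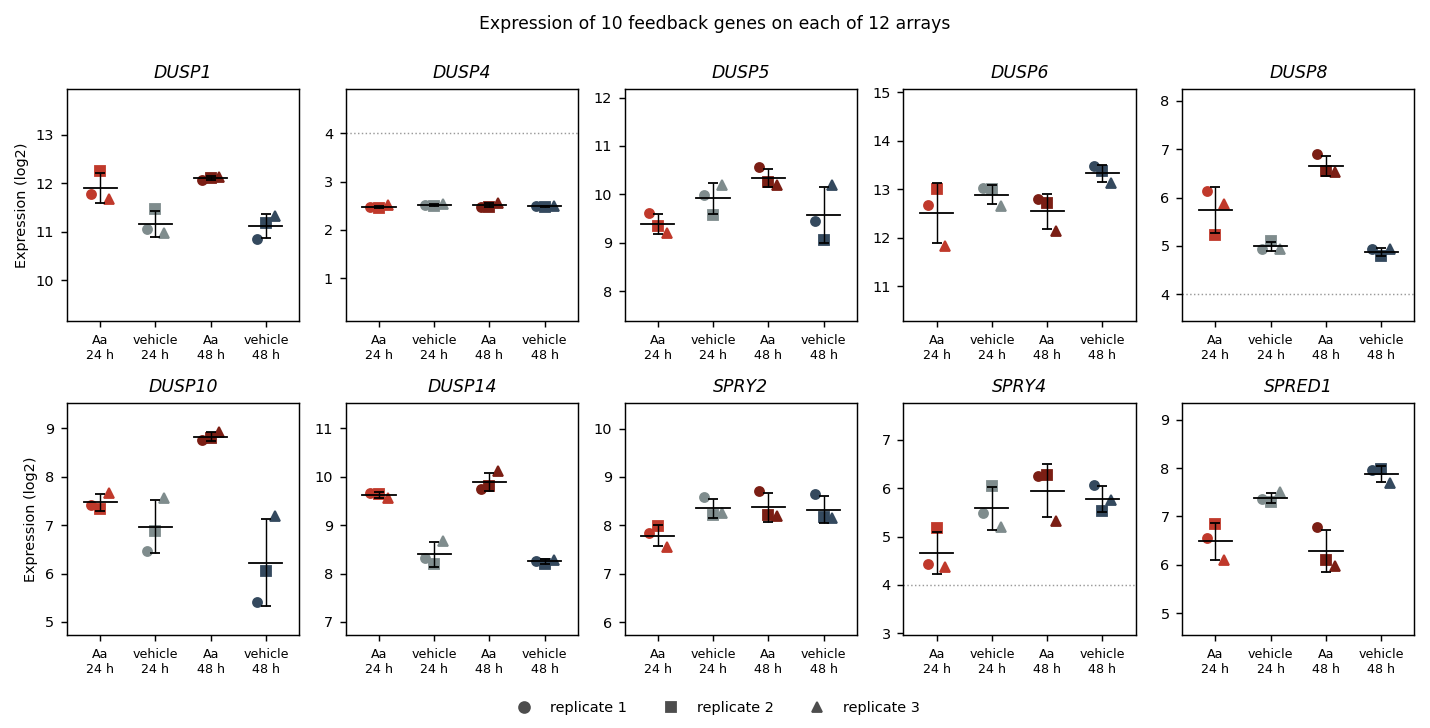
Expression (log2, vertical axis, 4.8 units in every panel) of the 10 genes on each array, by group; symbols give the replicate number, lines the group mean and bars 1 SD (n = 3), and the dotted line marks log2 4. DUSP14 and DUSP8 lie above their vehicle group at both times and SPRED1 below it, and DUSP4 stays between 2.46 and 2.56.

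Promoter sequence was available for 8 of the 10 genes from RefSeq (GRCh38.p14), and the 250 bases before the most upstream start that its promoter table lists are shown for the 4 phosphatase genes DUSP1, DUSP8, DUSP10 and DUSP14, which rose, and for SPRED1, which fell. Capitals mark matches, on either strand, to TGACGTCA, the palindromic cAMP response element bound by factors of the CREB and ATF family, to its shorter form TGACG, to TATAAA and to CCAAT. For DUSP8, DUSP14 and SPRY4 that start lies 577, 1325 and 774 bases inside the annotated gene, so their windows do not precede the gene's own 5' end. The windows lie on the minus strand of chr5:172771196-172771445 for DUSP1, chr11:1572272-1572521 for DUSP8 and chr1:221742090-221742339 for DUSP10, and on the plus strand of chr17:37489641-37489890 for DUSP14 and chr15:38252586-38252835 for SPRED1.
DUSP1: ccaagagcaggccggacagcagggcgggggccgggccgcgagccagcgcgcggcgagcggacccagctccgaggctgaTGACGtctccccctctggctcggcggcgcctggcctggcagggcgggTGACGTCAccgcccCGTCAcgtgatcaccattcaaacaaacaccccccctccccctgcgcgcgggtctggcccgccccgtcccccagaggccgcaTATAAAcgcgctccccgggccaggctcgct
DUSP8: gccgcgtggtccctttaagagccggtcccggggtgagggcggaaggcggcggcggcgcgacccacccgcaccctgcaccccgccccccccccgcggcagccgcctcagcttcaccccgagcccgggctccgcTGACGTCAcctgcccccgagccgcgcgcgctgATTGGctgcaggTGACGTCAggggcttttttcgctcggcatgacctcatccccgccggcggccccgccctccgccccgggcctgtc
DUSP10: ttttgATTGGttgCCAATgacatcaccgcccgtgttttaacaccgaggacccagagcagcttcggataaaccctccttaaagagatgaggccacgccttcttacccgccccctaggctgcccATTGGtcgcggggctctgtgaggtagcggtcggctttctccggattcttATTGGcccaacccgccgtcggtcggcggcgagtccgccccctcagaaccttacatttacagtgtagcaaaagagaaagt
DUSP14: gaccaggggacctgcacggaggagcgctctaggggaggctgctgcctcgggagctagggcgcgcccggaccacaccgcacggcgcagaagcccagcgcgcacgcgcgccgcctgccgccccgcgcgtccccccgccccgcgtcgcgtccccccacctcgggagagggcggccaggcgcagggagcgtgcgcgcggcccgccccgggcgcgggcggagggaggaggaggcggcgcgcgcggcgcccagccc
SPRED1: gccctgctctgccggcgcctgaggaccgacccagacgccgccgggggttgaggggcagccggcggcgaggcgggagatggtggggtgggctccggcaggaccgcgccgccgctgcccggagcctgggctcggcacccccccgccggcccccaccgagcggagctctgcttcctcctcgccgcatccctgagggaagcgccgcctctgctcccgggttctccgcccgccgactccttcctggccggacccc
DUSP1 held 1 copy of TGACGTCA, 125 to 118 bases before the start, and a TATAAA, held by 11.2% of all promoters, 30 to 25 bases before it. DUSP8 held 2 copies of TGACGTCA, at 118 to 111 and at 74 to 67 bases. Among all 27305 RefSeq promoters of this length, 1.75% held TGACGTCA, and of the 8 genes 2 did. The shorter form TGACG, which each palindrome contains on both strands, was in 4 of 8, and in 21.6% of all promoters. DUSP10 held 4 copies of CCAAT, a motif found in 3 of the 8 windows and in 33% of all. None of the 8 windows held the AP-1 letters TGANTCA, the ETS letters CCGGAAG or the letters TGATGNAA, which 6.57%, 8.78% and 3.19% of all promoters held. DUSP14 and SPRED1 held none of the 7 motifs searched. These matches describe letters in a window and are not evidence of binding.

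The first class are phosphatases of the nucleus that growth factors and stress induce within minutes. DUSP1, which acts on JNK, p38 and ERK, read 11.78, 12.25 and 11.67 in Aa cells at 24 h, against 11.05, 11.46 and 10.98 in vehicle cells. After 48 h the values were 12.06, 12.10 and 12.13 in Aa cells, against 10.84, 11.18 and 11.33 in vehicle cells. Every Aa array lay above every vehicle array at both times. DUSP1 was 1.67-fold higher at 24 h (log2 change 0.74, SE 0.183, adjusted p = 0.00621) and 1.97-fold higher at 48 h (0.98, SE 0.183, adjusted p = 0.000698). Its second probe set gave 0.35 at 24 h, which did not pass in a fit over all probe sets (adjusted p = 0.24), and 0.88 at 48 h, which did (adjusted p = 0.00689); another was at background on all arrays. With hybridisation-control scaling DUSP1 at 24 h was 0.45 (adjusted p = 0.0707).

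DUSP5, a nuclear phosphatase selective for ERK, did not follow DUSP1. At 24 h it read 9.61, 9.35 and 9.20 in Aa cells, against 9.98, 9.58 and 10.20 in vehicle cells, and the groups overlapped. At 48 h it read 10.56, 10.26 and 10.20 in Aa cells, against 9.44, 9.06 and 10.20 in vehicle cells. Vehicle replicate 3 lay just under the lowest Aa array there, so that the difference of the samples with that number was 0.01, whereas those of numbers 1 and 2 were 1.12 and 1.21. The log2 change was -0.54 at 24 h (95% confidence interval -1.11 to 0.04, adjusted p = 0.115) and 0.78 at 48 h (SE 0.262, adjusted p = 0.0229). The 48 h call was lost without Aa replicate 1 (adjusted p = 0.076), vehicle replicate 1 (0.0667) or vehicle replicate 2 (0.0956) of that time, and with hybridisation-control scaling (0.34, adjusted p = 0.256), with no filter (0.0573) and in a fit of the 48 h arrays alone (0.0536); at 24 h that scaling gave -0.82 (adjusted p = 0.0184), and leaving out vehicle replicate 3 of 48 h gave an adjusted p of 0.0371.

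DUSP4, the third nuclear enzyme, was not measurably expressed. All 3 of its probe sets stayed near the background of the array, and the one with the highest mean lay between 2.46 and 2.56 on all 12 arrays. It was not tested, and no order can be read among its values.

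DUSP6 encodes the cytoplasmic phosphatase that holds ERK in check. At 24 h it read 12.67, 13.01 and 11.83 in Aa cells, against 13.02, 13.00 and 12.66 in vehicle cells, and the groups overlapped. The 48 h values were 12.80, 12.72 and 12.14 in Aa cells, against 13.48, 13.37 and 13.13 in vehicle cells, with every Aa array below every vehicle array. The log2 change was -0.39 at 24 h (SE 0.276, adjusted p = 0.272) and -0.78 at 48 h (SE 0.276, adjusted p = 0.0287), or 1.71-fold lower. Replicate 3 was the lowest sample in each of the 4 groups, and the differences by replicate number at 48 h were -0.69, -0.65 and -0.99. Its other probe sets gave -0.55 and -0.56 at 48 h and did not pass in a fit over all probe sets (adjusted p = 0.119 and 0.0941). The 48 h call was lost without Aa replicate 3 (-0.57, adjusted p = 0.115), vehicle replicate 1 (0.0836) or vehicle replicate 2 (0.0683) of that time, with no filter (0.0705) and with the mean of its probe sets (0.0593).

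DUSP8 and DUSP10 encode phosphatases that prefer the stress kinases JNK and p38. DUSP8 read 6.14, 5.23 and 5.87 in Aa cells at 24 h, against 4.94, 5.11 and 4.93 in vehicle cells. Its 48 h values were 6.89, 6.55 and 6.52 in Aa cells, against 4.93, 4.79 and 4.93 in vehicle cells. The vehicle arrays stayed within a narrow band and every Aa array of either time lay above it. DUSP8 was 1.68-fold higher at 24 h (log2 change 0.75, SE 0.2, adjusted p = 0.00913) and 3.42-fold higher at 48 h (1.77, SE 0.2, adjusted p = 1.83e-05). At 24 h the call was lost with hybridisation-control scaling (0.47, adjusted p = 0.104) and when its second probe set, which lay mostly under log2 4, was averaged in (0.36, adjusted p = 0.0768). That mean at 48 h was 1.17 (adjusted p = 5.84e-05).

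DUSP10 read 7.41, 7.33 and 7.67 in Aa cells at 24 h, against 6.47, 6.88 and 7.56 in vehicle cells, and the groups overlapped. The values at 48 h were 8.75, 8.80 and 8.93 in Aa cells, against 5.41, 6.05 and 7.19 in vehicle cells. The Aa arrays of 48 h lay close together while the vehicle arrays were widely spread, with replicate 3 the highest in both vehicle groups. DUSP10 was 6.1-fold higher at 48 h (log2 change 2.61, SE 0.385, adjusted p = 0.000134), and higher in 3 of 3 samples by replicate number, by 3.34, 2.75 and 1.73. At 24 h the log2 change was 0.50 (95% confidence interval -0.35 to 1.35, adjusted p = 0.31). Its other probe set gave 1.14 at 24 h, which passed in a fit over all probe sets (adjusted p = 0.0047), and 2.88 at 48 h (adjusted p = 5e-06), and the mean of both also passed at 24 h (0.82, adjusted p = 0.045).

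DUSP14 encodes a small atypical phosphatase that lacks the kinase-docking region of the classical enzymes. It read 9.66, 9.65 and 9.56 in Aa cells at 24 h, against 8.32, 8.19 and 8.68 in vehicle cells. At 48 h it read 9.75, 9.81 and 10.11 in Aa cells, against 8.26, 8.20 and 8.29 in vehicle cells. The groups were far apart at both times. DUSP14 was 2.34-fold higher at 24 h (log2 change 1.23, SE 0.137, adjusted p = 3.34e-05) and 3.12-fold higher at 48 h (1.64, SE 0.137, adjusted p = 2.1e-06). It passed at both times under each of the 22 other settings. DUSP14 has only 1 probe set, so no other probe set could check these values.

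**Figure D2:**
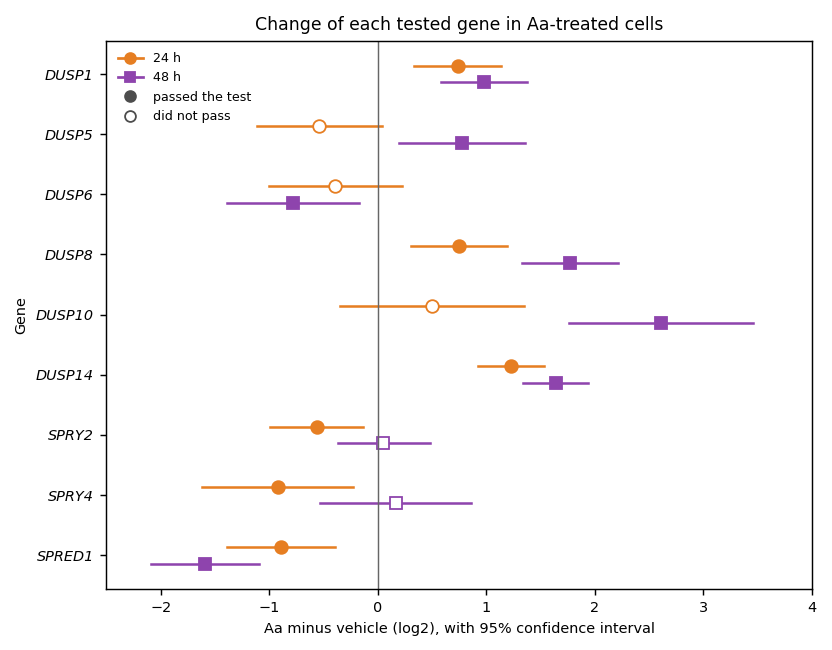
Log2 change (horizontal axis, Aa minus vehicle) of the 9 tested genes, with limma's 95% confidence interval; circles are 24 h, squares 48 h, and filled symbols passed at an adjusted p under 0.05. DUSP10 has the highest value at 48 h (2.61) and SPRED1 the lowest (-1.59); DUSP5, SPRY2 and SPRY4 lie below 0 at 24 h and above it at 48 h.

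The Sprouty genes were lower at 24 h. SPRY2, an inhibitor of RAS and ERK activation by several receptors, read 7.84, 7.98 and 7.55 in Aa cells, against 8.59, 8.21 and 8.26 in vehicle cells. Its values at 48 h were 8.71, 8.21 and 8.20 in Aa cells, against 8.64, 8.17 and 8.15 in vehicle cells, and the groups overlapped. SPRY2 was 1.48-fold lower at 24 h (log2 change -0.56, SE 0.192, adjusted p = 0.0312). At 48 h the change was 0.05 (95% confidence interval -0.37 to 0.48, adjusted p = 0.824), and -0.39 with hybridisation-control scaling. The 24 h call was lost without Aa replicate 1 (adjusted p = 0.0598), Aa replicate 3 (0.113) or vehicle replicate 1 (0.116) of that time, and with no filter (0.0666).

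SPRY4, which acts at the same step, read 4.44, 5.17 and 4.37 in Aa cells at 24 h, against 5.49, 6.05 and 5.19 in vehicle cells. At 48 h it read 6.26, 6.27 and 5.32 in Aa cells, against 6.07, 5.53 and 5.75 in vehicle cells. The Aa arrays of 24 h were the lowest of the 12 together, and at 48 h the groups overlapped. SPRY4 was 1.89-fold lower at 24 h (log2 change -0.92, SE 0.315, adjusted p = 0.0313), by a similar amount in all 3 replicate numbers (-1.05, -0.89 and -0.82). At 48 h the change was 0.17 (95% confidence interval -0.53 to 0.86, adjusted p = 0.662), and -0.27 with hybridisation-control scaling. The 24 h call was lost without Aa replicate 1 (adjusted p = 0.0982), Aa replicate 3 (0.103), vehicle replicate 1 (0.0589) or vehicle replicate 2 (0.121) of that time, and with no filter (0.0803).

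SPRED1 encodes a membrane protein that recruits the RAS inhibitor neurofibromin. It read 6.55, 6.84 and 6.09 in Aa cells at 24 h, against 7.35, 7.30 and 7.50 in vehicle cells. At 48 h it read 6.79, 6.11 and 5.97 in Aa cells, against 7.96, 7.99 and 7.70 in vehicle cells. Every Aa array lay below every vehicle array at both times. SPRED1 was 1.86-fold lower at 24 h (log2 change -0.89, SE 0.226, adjusted p = 0.00707) and 3.01-fold lower at 48 h (-1.59, SE 0.226, adjusted p = 0.000102), and passed at both times under each of the 22 other settings. Its other probe sets gave -0.29 and -0.64 at 24 h, neither of which passed, and -1.09 and -1.14 at 48 h, both of which passed.

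Over the 9 tested genes, the Aa and vehicle arrays did not overlap for 6 genes at 24 h and for 7 at 48 h, where 59.8% and 69.1% of all genes did not overlap. The other probe sets that reached the filter, 6 in all, had the sign of the probe set used at both times.

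**Figure D3:**
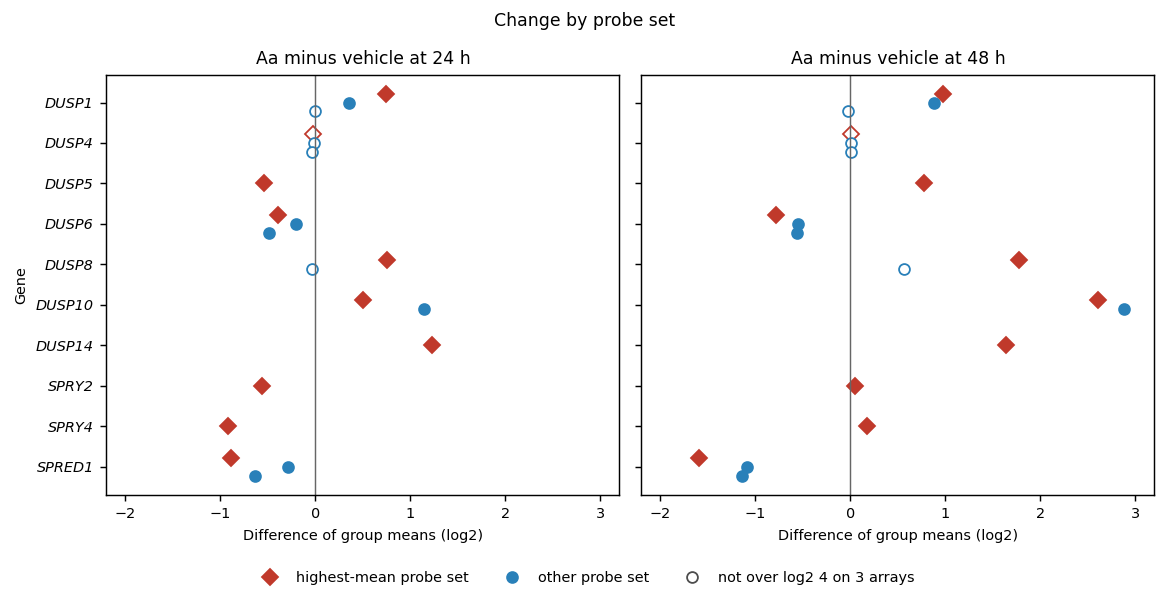
Difference of group means (log2, horizontal axis, Aa minus vehicle) at 24 h and 48 h for each of the 20 probe sets that name 1 of the 10 genes; diamonds are the probe sets used, and open symbols did not exceed log2 4 on at least 3 arrays. Filled circles lie on the same side of 0 as the diamond of their gene, and the probe sets of DUSP4 lie close to 0.

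The next comparison asked whether the change at 48 h differed from that at 24 h. It passed for 3 of the 9 genes, all with a higher value at 48 h, where 19.5% of all genes passed, 6.80% higher and 12.7% lower. The difference was 2.11 for DUSP10 (SE 0.545, adjusted p = 0.0237), 1.31 for DUSP5 (SE 0.371, adjusted p = 0.0329) and 1.02 for DUSP8 (SE 0.282, adjusted p = 0.0298), on the log2 scale. SPRY4 had a difference of 1.09 (95% confidence interval 0.10 to 2.07, adjusted p = 0.108) and SPRY2 one of 0.62 (95% confidence interval 0.02 to 1.22, adjusted p = 0.131). With the replicate number as a block, SPRY4 and SPRY2 passed too (adjusted p = 0.0389 and 0.023), which makes 5 of 9 genes, and 4314 in place of 2179 of all genes passed. For DUSP1, DUSP6, DUSP14 and SPRED1 the difference did not pass (0.24, -0.39, 0.42 and -0.70).

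These 3 calls lay close to the threshold. With no filter on low values, which adds genes to the adjustment and to limma's variance estimate, 0 of 9 passed by limma. The adjusted p was then 0.0751 for DUSP5, 0.0628 for DUSP8 and 0.0604 for DUSP10. In the filtered fit 5 of 9 had an unadjusted p under 0.05, and the share of all genes at that level was not counted. Of all 19775 genes, 1712 passed with no filter. For DUSP5 the difference passed without Aa replicate 1 or vehicle replicate 2 of 24 h or vehicle replicate 3 of 48 h, and each of the other 9 arrays left out gave an adjusted p from 0.0515 to 0.0799. For DUSP8 it was lost with hybridisation-control scaling (0.87, adjusted p = 0.0807), without Aa replicate 1 of 48 h (0.0555), without any of the vehicle replicates 1, 2 and 3 of 24 h (0.0529, 0.0611 and 0.0577), and without vehicle replicate 1 or 2 of 48 h (0.0546 and 0.0694). For DUSP10 it was lost without Aa replicate 2 of 24 h (0.0553), Aa replicate 3 of 48 h (0.0519), vehicle replicate 3 of 24 h (0.057) or vehicle replicate 2 of 48 h (0.0569). Leaving out Aa replicate 3 of 48 h brought SPRY4 past the threshold (adjusted p = 0.0453), and leaving out Aa replicate 1 of 48 h did so for SPRED1 (-0.95, adjusted p = 0.034).

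The arrays of 1 treatment were also compared between the times. Between Aa at 48 h and Aa at 24 h, 5 of 9 genes passed, all higher at 48 h, where 29.2% of all genes passed and 9.65% were higher. They were DUSP10 (log2 difference 1.36, adjusted p = 0.0232), SPRY4 (1.29, adjusted p = 0.012), DUSP5 (0.96, adjusted p = 0.0201), DUSP8 (0.91, adjusted p = 0.00728) and SPRY2 (0.58, adjusted p = 0.0419). With hybridisation-control scaling DUSP10 and SPRY4 passed as higher and SPRED1 as lower (-0.67, adjusted p = 0.0313), and the others did not pass. Leaving out 1 array ended the call of DUSP5 (Aa replicates 2 and 3 of 24 h and 1 of 48 h, adjusted p = 0.0567, 0.0626 and 0.0615) and that of DUSP10 (Aa replicates 1 and 2 of 24 h and 2 and 3 of 48 h, adjusted p = 0.0596, 0.0688, 0.0541 and 0.0669). That of SPRY2 ended without any of 7 arrays, namely Aa replicate 1 or 3 of 24 h (0.0771 and 0.136), Aa replicate 1, 2 or 3 of 48 h (0.138, 0.0533 and 0.0515) and vehicle replicate 2 or 3 of 24 h (0.0521 and 0.0546), as well as with equal array medians (0.54, adjusted p = 0.0651) and in a fit of the Aa arrays alone (adjusted p = 0.0717). With no filter the calls of DUSP5, DUSP10 and SPRY2 were lost (adjusted p = 0.0506, 0.0624 and 0.0853). Between vehicle at 48 h and vehicle at 24 h, 0 of 9 passed by limma, where 0.635% of all genes passed and 0.277% were higher at 48 h. At an unadjusted p under 0.05 the count was also 0 of 9, and the share of all genes at that level was not counted. DUSP10 had the value farthest from 0 in vehicle cells (-0.75, 95% confidence interval -1.60 to 0.10), and passed without vehicle replicate 3 of 48 h (-1.24, adjusted p = 0.0427). These comparisons share arrays with those of Aa against vehicle.

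Related genes were read from lists. Their counts stand beside those of all 11184 genes, of which 26.3% passed as higher and 22.8% as lower at 24 h. At 48 h 30.6% of all genes were higher and 33.9% lower. Of the other MAP kinase phosphatases, DUSP2, DUSP7, DUSP9 and DUSP16, 0 of 4 passed at 24 h by limma, and at 48 h 1 rose and 1 fell. DUSP2, a nuclear enzyme known from immune cells, read 5.72, 4.96 and 5.31 in Aa cells at 48 h, while its vehicle arrays were under log2 4, so that it was at least 2.52-fold higher (adjusted p = 4.17e-05). DUSP16, which acts on JNK and p38, had a change of -0.55 at 48 h (adjusted p = 0.0106), and -0.23 (adjusted p = 0.0691) as the mean of its 4 probe sets. DUSP7 and DUSP9, both ERK phosphatases, had values of -0.05 and 0.41 at 48 h and did not pass. The median over the 4 genes was 0.11 at 24 h and 0.18 at 48 h.

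Of 9 tested atypical phosphatases other than DUSP14, 3 rose and 1 fell at 24 h, and 4 rose and 4 fell at 48 h (medians -0.05 and 0.47). DUSP28 read 7.62, 7.59 and 7.04 in Aa cells at 24 h, against 5.48, 5.6 and 5.66 in vehicle cells, a rise of 3.56-fold, and it was 6.58-fold higher at 48 h. DUSP12 was 1.94-fold higher at 24 h and 1.95-fold at 48 h. DUSP3, which acts on ERK and JNK, rose by 0.81 at 24 h, but only 1 of its 3 probe sets had that direction and their mean did not pass (0.14, adjusted p = 0.468). DUSP18 was at least 2.35-fold lower at 48 h, with 1 of 3 Aa arrays under log2 4, and 1 of its 2 probe sets had that direction.

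The other Sprouty and Spred genes went both ways. SPRED2, a paralog of SPRED1, read 8.32, 8.33 and 7.97 in Aa cells at 24 h, against 9.40, 9.25 and 9.47 in vehicle cells, and fell by 1.17 at 24 h (adjusted p = 9.34e-05) and by 0.76 at 48 h (adjusted p = 0.00105), on the log2 scale. At 48 h 2 of its 3 probe sets had that direction. SPRY1 lay under log2 4 on all 6 Aa arrays, against 6.79, 6.36 and 4.6 in vehicle cells at 48 h, and was at least 3.77-fold lower there (adjusted p = 0.000663), or at least 5.96-fold without vehicle replicate 3. SPRED3 rose by 0.71 at 24 h (adjusted p = 0.0135) and by 0.58 at 48 h (adjusted p = 0.0263). It was lost at 24 h without vehicle replicate 3 (adjusted p = 0.0527) and at 48 h without Aa replicate 2 (0.108), vehicle replicate 2 (0.065) or vehicle replicate 3 (0.0776), and at both times with hybridisation-control scaling (0.123 and 0.578). SPRY3 was under log2 4 on all arrays.

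**Figure D4:**
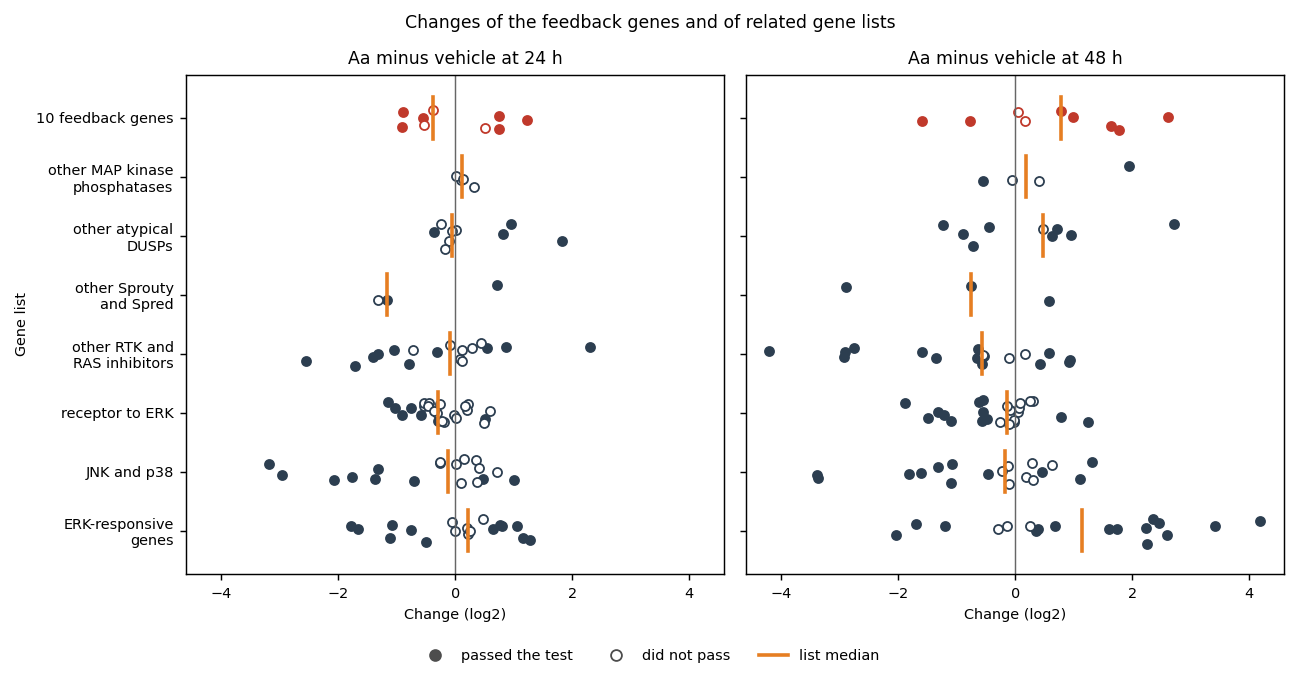
Log2 change (horizontal axis, Aa minus vehicle) at 24 h and 48 h of each tested gene of 8 lists; filled points passed at an adjusted p under 0.05 and bars mark list medians. The 9 tested feedback genes spread to both sides of 0 at both times, and the ERK-responsive genes have a median of 0.21 at 24 h and 1.13 at 48 h.

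Among the parts of the ERK cascade 1 of 23 tested genes rose and 6 fell at 24 h, and 2 rose and 10 fell at 48 h (medians -0.30 and -0.15). EGFR, the receptor for the growth factor in the medium, read 10.75, 10.92 and 10.70 in Aa cells at 24 h, against 11.90, 11.80 and 11.77 in vehicle cells, and was 2.05-fold lower at 24 h and 2.14-fold lower at 48 h; 8 and 5 of its 9 probe sets had that direction. RPS6KA3, which encodes a kinase activated by ERK, was 2.21-fold and 2.51-fold lower. SOS1, which loads RAS with GTP, was 3.70-fold lower at 48 h (adjusted p = 0.000217) and had a change of -0.45 at 24 h (adjusted p = 0.238, and 0.00575 with the replicate number as a block). At both times 4 of its 5 probe sets had that direction. RRAS, a RAS relative, was 1.88-fold lower at 24 h (adjusted p = 0.00299) and had a change of -0.56 at 48 h (adjusted p = 0.0296), a call lost without Aa replicate 1 or 2 (0.0782 and 0.0986) or vehicle replicate 1 or 3 (0.0585 and 0.107) of that time and with no filter (0.0635). The receptor gene FGFR2 was 2.83-fold lower at 48 h, where 7 of its 11 probe sets had that direction, and had a change of -0.54 at 24 h (adjusted p = 0.0609, and 0.00445 with the replicate block). In the JNK and p38 cascade 2 of 18 rose and 7 fell at 24 h, and 3 rose and 8 fell at 48 h (medians -0.13 and -0.18). MAP2K6, an activator of p38, was 9.05-fold lower at 24 h and at least 9.76-fold lower at 48 h. MAPK10, a JNK gene, was under log2 4 on all Aa arrays and at least 3.31-fold lower at 24 h and 4.39-fold at 48 h. At 48 h 2 of the 3 probe sets of MAPK10 had that direction. MAP3K5, which starts the stress cascade, was 4.23-fold and 3.51-fold lower.

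Genes known to be induced by ERK changed in both directions at 24 h, with 6 of 18 higher and 6 lower, and mostly upward at 48 h, with 12 higher and 3 lower. Of all genes 26.3% were higher and 22.8% lower at 24 h, and 30.6% and 33.9% at 48 h. This list leaves out the members, among them DUSP6, which passed as lower at 48 h, and SPRY4, which did not pass there. FOS, an immediate early gene and AP-1 subunit, read 8.91, 8.30 and 9.19 in Aa cells at 48 h, against 4.59, 4.50 and 4.72 in vehicle cells, and was 18.3-fold higher (log2 change 4.19, adjusted p = 1.2e-07); at 24 h its change was 0.22 (adjusted p = 0.457). FOSL1, another AP-1 subunit, was at least 10.4-fold higher at 48 h (adjusted p = 0.000365), with 1 of 3 vehicle arrays under log2 4, and at least 15.9-fold higher without vehicle replicate 3. At 24 h its change was 0.20 (adjusted p = 0.804). The vehicle mean of FOSL1 was 6.89 at 24 h and 5.09 at 48 h, and its Aa mean was 7.09 and 8.51. Between the times neither vehicle (-1.80, adjusted p = 0.156) nor Aa cells (1.42, adjusted p = 0.0908) passed by limma. ETS2 was 2.41-fold higher at 24 h and 5.45-fold at 48 h, and MAFF 1.56-fold and 6.03-fold, where the 24 h call of MAFF was lost with hybridisation-control scaling (adjusted p = 0.0768). Of the 3 probe sets of ETS2, 2 had that direction at 24 h. ETV1, an ETS factor, was 3.18-fold lower at 24 h and 3.25-fold at 48 h. EGR1 was 3.46-fold lower at 24 h and had a change of 0.25 at 48 h (adjusted p = 0.343, and 0.64 with an adjusted p of 0.00622 as the mean of its 3 probe sets), with a difference between the times of 2.04 (adjusted p = 0.00269). Of 17 other inhibitors of receptors and RAS, 3 rose and 7 fell at 24 h, and 4 rose and 10 fell at 48 h (medians -0.09 and -0.57). The ubiquitin ligase gene CBLB was 2.64-fold lower at 24 h and at least 16.5-fold at 48 h, and RASAL2, a RAS GTPase activator, was 5.91-fold and 7.60-fold lower. At 48 h 2 of the 3 probe sets of CBLB and 6 of the 8 of RASAL2 had that direction. LRIG3 was 3.28-fold lower at 24 h and 7.50-fold at 48 h. LRIG2 was 4.93-fold higher at 24 h, and 2 of its 4 probe sets shared that sign. The reference genes ACTB and GAPDH had changes of -0.09 and 0.03 at 24 h, and -0.29 and -0.08 at 48 h, none of which passed. At 48 h ACTB passed with the replicate block (adjusted p = 0.00623), and with hybridisation-control scaling ACTB was -0.73 and GAPDH -0.52, both of which passed; GAPDH turned to -0.25 at 24 h with that scaling.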

How the data were processed

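Biotinylated cRNA of HK-2 cells was hybridised to 12 Affymetrix arrays, 3 in each of 4 groups, per the labels. The deposited values are log2 expression levels. GCRMA is named for them in the submitters' processing notes, with no version. GCRMA corrects background by probe sequence and sets the arrays to nearly 1 distribution, which hides any shift common to the whole transcriptome. That the scale is log2 was inferred from their range, with array medians between 2.91 and 3.02.

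Of 54675 probe sets, 41091 named 1 gene in the platform annotation, 1801 several, 11721 none, and 62 were controls; 41037 matched the RefSeq gene table of GRCh38.p14 by Entrez number. Each of 19775 genes was represented by its probe set with the highest mean, and was tested if over log2 4 on at least 3 of 12 arrays, which kept 11184. Group means over all 12 arrays were compared, with no replicate block, by lmFit and eBayes of limma 3.58.1 (R 4.3.3; 8 residual and 2.79 prior degrees of freedom), with Benjamini-Hochberg adjustment over all 11184 genes and a threshold of 0.05. Every adjusted p given is from limma. The fit was tested on simulated data with known changes. It recovered 76% of 100 changes of log2 1 and 93% of 100 changes of log2 2, and 7.65% of its calls were false. The simulated noise was independent between arrays and few genes changed. That check therefore does not cover the likeness of samples sharing a number or the large share of genes that passed here. Arrays of the lower group with values under log2 4 were set to log2 4 for the fold, which is then a lower bound.

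The member genes and the lists were chosen with earlier results of these data known. Named genes were all members, ACTB and GAPDH, every gene of lists of 4 or fewer, the 3 largest changes of other lists at each time, and the 2 tested genes nearest to each member that passed at both times; the promoter letters were chosen after values were seen. Other settings covered the filter, normalisation, probe set choice, variance model, leaving out each array, and the replicate number as a block. After group means were removed, each of 18 sample pairs sharing a number had a correlation of 0.279 to 0.577, although the labels do not say what they shared. The p-values of the main fit did not use this pairing. It entered only the fits with the replicate block and the differences by replicate number. The labels call replicates biological but name no separate cultures, so p-values measure the spread between these samples, which may be technical. The number of arrays limits the precision, with a median SE of 0.161 for a change.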

Additional observations from a re-analysis of the deposited data

Results flagged for a closer look

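The change with Aa differed between the times for 3 of the 9 tested genes, by limma's test of the difference itself. Of all genes 19.5% passed this test, and 6.80% passed with a higher value at 48 h. The 3 calls lay close to the threshold. With no filter 0 of the 9 genes passed, and 1712 of all 19775. With each of 12 arrays left out in turn, DUSP10 passed in 8 fits, DUSP8 in 6 and DUSP5 in 3. DUSP10 had a log2 change of 2.61 at 48 h and 0.50 at 24 h, a difference of 2.11 (adjusted p = 0.0237). DUSP5 had 0.78 at 48 h and -0.54 at 24 h, a difference of 1.31 (adjusted p = 0.0329). DUSP8 had 1.77 at 48 h and 0.75 at 24 h, a difference of 1.02 (adjusted p = 0.0298). For DUSP10 the vehicle mean was 6.22 ± 0.90 at 48 h and 6.97 ± 0.55 at 24 h, and the Aa mean 8.83 ± 0.09 and 7.47 ± 0.18 (log2, SD, n = 3 each).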

How the results depend on the processing

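Of 1320 values of single genes under the 10 settings that kept all arrays, 1231 kept their direction and side of the threshold, 49 lost the call, 21 gained it and 19 turned sign; with each of 12 arrays left out in turn, 1491 of 1620 kept both, 97 lost it, 13 gained it and 19 turned sign. No value that turned sign was called before or after. DUSP14 and SPRED1 passed at both times, and DUSP1, DUSP8 and DUSP10 at 48 h, under all 22 settings. For DUSP14, with only 1 probe set, averaging the probe sets could not alter the values.

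With the replicate number as a block, 6883 of 11184 genes passed at 24 h and 8193 at 48 h, against 5492 and 7210 as reported, with 6 and 7 of the 9 feedback genes as before. For the difference between the times 5 of the 9 feedback genes and 4314 of all genes passed, and 1669 genes passed between the vehicle groups and 4987 between the Aa groups; among the 9 genes it changed no other call. With no filter 0 of the 9 passed for the difference and 2 between the Aa groups, where 1712 and 2860 of all 19775 genes passed. With hybridisation-control scaling 3 of the 9 and 6788 of all genes passed between the Aa groups, and 1945 genes between the vehicle groups, where 141 passed with a floor at log2 4, 146 with a trended robust variance and 0 in a pairwise fit, against 71 as reported.

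Leaving out 1 array, 4 to 7 of the 9 genes passed at 24 h, 5 to 7 at 48 h, 0 to 3 for the difference, 3 to 5 between the Aa groups and 0 to 1 between the vehicle groups. Over all genes the range was 4816 to 5565, 6568 to 7215, 1241 to 2597, 2304 to 3259 and 9 to 545 for the same comparisons. Changes that turned sign in this way were those at 24 h of FOSL1 (-0.09 to 0.73), DUSP9 (-0.05 to 0.06), DUSP16 (-0.01 to 0.30), ACTB (-0.17 to 0.01) and GAPDH (-0.01 to 0.06), those at 48 h of SPRY2 (-0.12 to 0.21) and DUSP7 (-0.13 to 0.02), that of DUSP6 between the Aa groups (-0.29 to 0.30), and those of SPRY2 (-0.19 to 0.09) and DUSP1 (-0.15 to 0.10) between the vehicle groups.

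Hybridisation-control scaling turned, at 24 h, FOS to -0.06, FOSL1 to -0.08, DUSP7 to -0.20, DUSP9 to -0.27, DUSP16 to -0.15 and GAPDH to -0.25, and at 48 h SPRY2 to -0.39, SPRY4 to -0.27, EGR1 to -0.19 and DUSP9 to -0.03. It turned SPRY4 to -0.11 between the vehicle groups, and DUSP1 to -0.28, DUSP6 to -0.43 and DUSP14 to -0.20 between the Aa groups. Quantile normalisation gave DUSP9 -0.02 at 24 h, and DUSP7 and GAPDH 0.03 at 48 h. Equal array medians gave DUSP6 0.00 between the Aa groups, and the mean of all probe sets gave DUSP16 -0.11 at 24 h. Where the scaling or the probe set choice moved a value, the cause was not tested. Signals near background, under log2 4, limit what can be read for DUSP4, DUSP2, SPRY1 and MAPK10. On single arrays of 48 h they also limit MAP2K6, CBLB, DUSP18 and FOSL1.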

Other observations

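Genes outside the lists followed some of the feedback genes closely over the 12 arrays. Likeness was the root mean square difference after each gene's mean was subtracted, and nothing is implied about shared function. The genes named here were picked by that likeness, so that changes near those of the feedback gene follow from the choice. MBD4, which encodes a DNA glycosylase, was nearest to DUSP1 (0.142 log2 units) and was 1.73-fold higher at 24 h and 1.94-fold at 48 h; THUMPD1 was next (0.151). KLC2, a kinesin light chain gene, and SUPT6H, a transcription elongation factor gene, were nearest to DUSP8 (0.183 and 0.186). PANK4 and the kinase gene STK11 were nearest to DUSP14 (0.126 and 0.134), and STK11 was 2.61-fold higher at 24 h and 3.11-fold at 48 h. EPS15, which encodes an adaptor for receptor endocytosis, and B3GNT9 were nearest to SPRED1 (0.14 and 0.143), and EPS15 was 1.89-fold lower at 24 h and 2.70-fold at 48 h.

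Of 267 tested genes with TGACGTCA in the 250 bases before the start used, 33.7% rose and 20.2% fell at 24 h, where 26.3% rose and 23.4% fell among all 9245 tested genes with a promoter in the table. At 48 h 40.4% rose and 27% fell, where 30.4% rose and 34.5% fell among all. For the 1547 genes with CCGGAAG 29.3% rose and 19.1% fell at 24 h, and 36.5% rose and 26.9% fell at 48 h. Of the 120 genes with TGATGNAA 24.2% rose and 35% fell at 24 h, and 31.7% rose and 39.2% fell at 48 h. For the other 4 motifs searched the shares that rose lay between 25.8% and 28% at 24 h and between 31.2% and 33.4% at 48 h, and the shares that fell between 21.6% and 24.6% at 24 h and between 31.3% and 34.2% at 48 h. These motifs were chosen after the values of the feedback genes had been seen, and no test was made of these shares.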
